A study of Drosophila melanogaster with 8 samples.

Results

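The change in gene expression over the recovery period after dStim knockdown was described by setting the pupal central nervous system (CNS) at 72 h after puparium formation (APF), following knockdown and recovery, against the CNS at 36 h APF, directly after knockdown. This uses 4 of the 8 samples of the series. The KD+Recovery 72 h group (2 samples) had 24 h of knockdown followed by 36 h of recovery, and the KD 36 h group (2 samples) had the same 24 h of knockdown and none of recovery. Both carried the genotype ElavC155GAL4; dStimRNAi/tubulinGAL80ts. In these animals the elav driver expresses GAL4 in neurons, the RNAi transgene against Stim answers to GAL4, and the ubiquitous temperature-sensitive GAL80 blocks GAL4 until the temperature is raised to 29 °C from the 25 °C that the labels give for rearing. Canton S animals without these transgenes gave the WT 72 h and WT 36 h groups (2 samples each), so that the knockdown and the transgenic background cannot be told apart in a comparison with WT. The study describes the driver as pan-neuronal, while the dissected CNS also holds glia and other cells. Which cells expressed the RNAi was not measured here. About 10 CNS were pooled per sample. The labels give 29 °C as the knockdown temperature for the WT groups as well. Age, recovery and time since the 29 °C period change together from 36 h to 72 h. They cannot be told apart in any ratio over time below.

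Over this interval the fly CNS passes through the later part of metamorphosis. Neurons born in the larva and early pupa finish growing axons and dendrites, and synapses, channels and transmitter systems of the adult are assembled. Pulses of the steroid ecdysone time these steps through a cascade of nuclear receptors. STIM is the calcium sensor of the endoplasmic reticulum that opens the Orai channel of the plasma membrane when stores are empty, which is store-operated calcium entry (SOCE).

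The values are FPKM, a fragment count corrected for transcript length and library size, and there is 1 value per gene and group, which the authors pooled over the 2 replicates. No replicate error can be had from them, so no difference below has a test, and each ratio of 2 pooled values is a description of these libraries. Of 13989 genes listed, 9565 were above 0 in both knockdown groups and at least 1 FPKM in 1 of them. These are called measured, and "rose" or "fell" below means a difference of at least 2-fold between the pooled values, or of at least 1 on the log2 scale. The 36 h and 72 h tables were normalized separately by the authors, so levels at 72 h and 36 h are on scales that were set apart from each other. Ages given without a genotype refer to the knockdown groups. Depth per sample is unknown from these values. The files give overlapping or adjoining genes a common locus, and 3766 measured genes (39.4%) share theirs with another listed gene, so that the split of reads between such genes is uncertain. Among the genes named below this holds for Ddc, Cha, Nuf2, para, Itp-r83A, GluRIIA, Slob, Obp44a, RpL41, elav, Rbp9, CG17838, CG11910, Eip75B, Hr38, st, olf186-F, CG7888, CG11997, CG12880, CG14892, Act57B, Adh, Cpr51A, Hsp68 and tal-AA, and for others with smaller changes. In a bulk CNS, fewer cells of a type and less RNA per cell cannot be told apart.

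Stim itself (dm3, X, 15828527 to 15834543), the target of the knockdown, was listed at 31.3 FPKM in KD+Recovery 72 h and 33.9 FPKM in KD 36 h, against 38.6 FPKM in WT 72 h and 42.2 FPKM in WT 36 h. It was lower in knockdown at both ages, and its log2 change over time was −0.12 in knockdown and −0.13 in WT. The neuronal markers Syt1 (742 FPKM at 72 h and 241 FPKM at 36 h) and n-syb (1208 FPKM at 72 h and 632 FPKM at 36 h) and the glial marker repo (46.7 FPKM at 72 h and 62.0 FPKM at 36 h) were present in both knockdown groups, as the CNS label says. Their directions do not stand for their cell types. Among the other markers, given below, neuronal elav was lower at 72 h and brp stayed within 2-fold, while glial nrv2 and Eaat1 rose.

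More genes fell than rose over the recovery period. In knockdown, 1429 of the 9565 measured genes rose (14.9%) and 2766 fell (28.9%), and the median log2 ratio was −0.41. In WT, 1588 of 9924 rose (16.0%) and 2544 fell (25.6%), with a median of −0.38. The excess of falls depends on where the zero between the tables is set: with log2 ratios centred on the median of all measured genes, 2010 rose and 1873 fell in knockdown, and the share of rises among the changed genes was 51.8% against 34.1% as deposited. List medians are therefore also given relative to that median in parentheses. The summed FPKM was alike at both ages (617894 in KD+Recovery 72 h and 619511 in KD 36 h), and 8972 and 9269 genes reached 1 FPKM. The plot of levels at both ages shows these changes for all measured genes, with ribosomal protein genes at the top right, transmitter and glycolysis genes above the diagonal and cell cycle genes below it.

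**Figure D1:**
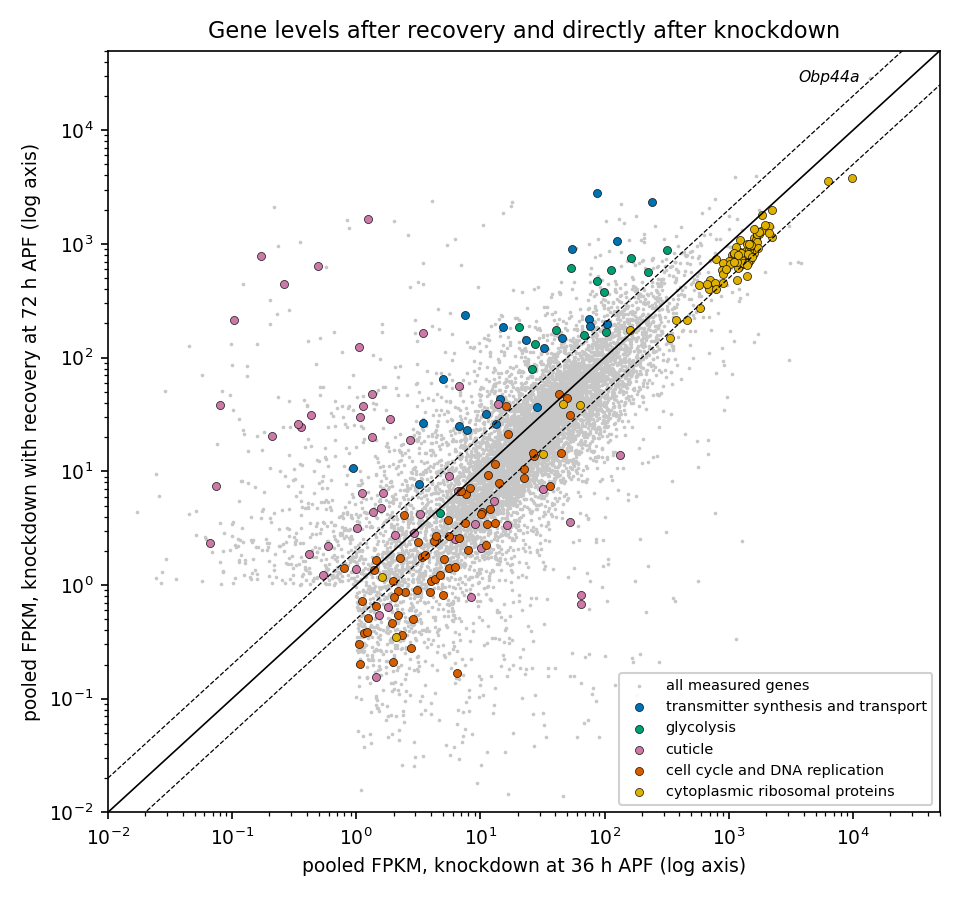
Pooled FPKM of each measured gene in KD+Recovery 72 h (vertical, log axis) against KD 36 h (horizontal, log axis), with 5 gene lists coloured, equal levels on the solid line and 2-fold differences on the dashed lines. Glycolysis and transmitter genes lie above the upper dashed line for the most part, 39 of 66 cell cycle genes lie below the lower one, and cuticle genes spread over both sides.

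Genes of cell division and DNA replication were lower after recovery. Of 66 measured members of the cell cycle list, 39 fell and 1 rose, with a median log2 ratio of −1.26 (−0.85 relative to all genes), and the WT median was −1.22. They fell in each role: 9 of 15 genes of replication licensing, 9 of 16 polymerase and nucleotide supply genes, 13 of 18 cyclins, kinases and regulators, and 8 of 17 genes of mitosis. RnrS, the small subunit of ribonucleotide reductase, which makes deoxynucleotides, was at 0.277 FPKM in KD+Recovery 72 h and 2.75 FPKM in KD 36 h, a fall of 9.91-fold, with 0.208 and 2.47 FPKM in WT 72 h and WT 36 h. The mitotic cyclin CycB was at 0.210 FPKM at 72 h and 1.99 FPKM at 36 h in the knockdown groups and at 0.379 FPKM at 72 h and 2.30 FPKM at 36 h in the WT groups. Most of these genes were already low at 36 h. The list median was −0.87 with at least 1 FPKM in every group and −0.81 with a pseudocount of 1, so its size depends on low values. The licensing helicase subunit Mcm3 stood at 0.507 FPKM at 72 h and 2.85 FPKM at 36 h in knockdown, and mus209, which encodes the sliding clamp PCNA, at 1.69 FPKM at 72 h and 5.07 FPKM at 36 h. The exception was Psf3, a subunit of the GINS replication complex, which rose 2.33-fold to 37.6 FPKM in KD+Recovery 72 h, against 16.1 FPKM in KD 36 h, and stood at 43.8 FPKM at 72 h and 20.7 FPKM at 36 h in WT. The kinetochore gene Nuf2 had the steepest fall of the list, 38.4-fold (0.168 FPKM at 72 h and 6.45 FPKM at 36 h), and its log2 change differed from that in WT (0.394 FPKM at 72 h and 2.01 FPKM at 36 h) by −2.91. Its 72 h values were below 1 FPKM in knockdown and in WT, outside the filter used for the other comparisons with WT. Its locus is shared with another listed gene, so its reads may be split between both.

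Stem cell genes moved less as a group. Of 23 measured genes of neuroblast identity, 6 fell and 1 rose, and the median of −0.49 was close to that of all genes (−0.08 relative to it). The falls were steep in a few. grh, a transcription factor of late neuroblasts and of epidermis, was at 0.274 FPKM in KD+Recovery 72 h and 5.99 FPKM in KD 36 h. brat, which restrains self-renewal in the daughter of a dividing neuroblast, was at 8.44 FPKM at 72 h and 114 FPKM at 36 h, a fall of 13.5-fold, and at 7.66 FPKM at 72 h and 82.5 FPKM at 36 h in WT. The polarity gene baz fell 5.52-fold (1.13 FPKM at 72 h and 6.24 FPKM at 36 h). dpn, a neuroblast marker, rose 2.25-fold at low levels (2.03 FPKM at 72 h and 0.905 FPKM at 36 h), and the temporal identity gene chinmo stayed within 2-fold (12.0 FPKM at 72 h and 11.4 FPKM at 36 h). The histone variant His2Av fell 3.66-fold (70.7 FPKM at 72 h and 259 FPKM at 36 h).

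Notch signalling genes and part of the apoptosis genes were lower as well. Of 14 measured Notch and E(spl) genes, 11 fell and none rose, with a median of −1.64 (−1.23 relative to all genes). The ligand Ser was at 0.255 FPKM in KD+Recovery 72 h and 5.55 FPKM in KD 36 h, and the receptor gene N stayed within 2-fold. The bHLH repressor gene HLHm7 was at 0.731 FPKM at 72 h and 12.1 FPKM at 36 h in knockdown and 2.21 FPKM at 72 h and 10.3 FPKM at 36 h in WT. HLHmdelta was at 0.288 FPKM at 72 h and 2.76 FPKM at 36 h in knockdown and 1.84 FPKM at 72 h and 1.47 FPKM at 36 h in WT. Both fell in knockdown, and in WT HLHm7 fell while HLHmdelta stayed within 2-fold. Of 15 measured cell death genes, 7 fell and 1 rose (median −0.86, or −0.46 relative to all genes), where 28.9% of all measured genes fell. The falls were in 4 of 6 caspase and apoptosome genes. Among initiators and inhibitors, 3 of 9 fell, with a median of −0.26 relative to all genes. The effector caspase Ice fell 5.30-fold, with 5.88 FPKM in KD+Recovery 72 h and 31.2 FPKM in KD 36 h, and the death inducers grim (1.67 FPKM at 72 h and 9.72 FPKM at 36 h) and rpr (3.18 FPKM at 72 h and 13.6 FPKM at 36 h) fell as well. Iap2, an inhibitor of apoptosis, was the member that rose, 2.60-fold (111 FPKM at 72 h and 42.6 FPKM at 36 h in knockdown, 112 FPKM at 72 h and 42.2 FPKM at 36 h in WT).

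Genes of synaptic transmission were higher after recovery, most of all those that make and carry transmitters. Of 22 measured genes of transmitter synthesis and transport, 19 rose and none fell, with a median of 1.90 (2.31 relative to all genes) and a WT median of 1.84. Gad1, which makes GABA, was at 895 FPKM in KD+Recovery 72 h and 55.1 FPKM in KD 36 h, a rise of 16.2-fold, and at 735 FPKM at 72 h and 57.8 FPKM at 36 h in WT. The GABA transporter CG1732 (Gat) was at 2797 FPKM at 72 h and 86.8 FPKM at 36 h, a rise of 32.2-fold, and at 2475 FPKM at 72 h and 182 FPKM at 36 h in WT. All 4 values of CG1732 put the 72 h groups far above the 36 h groups, and the knockdown was lower than WT at 36 h and higher at 72 h, so that its log2 change was 1.25 larger in knockdown. The choline acetyltransferase gene Cha rose 12.3-fold (187 FPKM at 72 h and 15.2 FPKM at 36 h). Among monoamine genes, Ddc, which makes dopamine and serotonin and also serves cuticle tanning, rose 31.0-fold (235 FPKM at 72 h and 7.57 FPKM at 36 h, with 263 FPKM at 72 h and 10.2 FPKM at 36 h in WT). The tyrosine hydroxylase gene ple rose 7.81-fold (26.8 FPKM at 72 h and 3.43 FPKM at 36 h, with 27.5 FPKM at 72 h and 4.90 FPKM at 36 h in WT). Which cells held the transcripts of Ddc and ple was not measured. The octopamine synthesis gene Tbh stayed within 2-fold (36.5 FPKM at 72 h and 28.6 FPKM at 36 h). The glial enzymes and carriers that clear glutamate rose too, Gs2 by 9.84-fold (2356 FPKM at 72 h and 239 FPKM at 36 h) and Eaat1 by 8.30-fold (1052 FPKM at 72 h and 127 FPKM at 36 h).

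Of 43 measured genes of the synaptic vesicle cycle, 24 rose and none fell, with a median of 1.18 (1.58 relative to all genes) against 0.87 in WT. Rises were found in 11 of 18 genes of fusion, 6 of 10 genes of vesicle proteins and filling and 7 of 15 genes of recycling. synaptogyrin, a vesicle membrane protein, was at 374 FPKM in KD+Recovery 72 h and 21.7 FPKM in KD 36 h, with 317 FPKM at 72 h and 28.5 FPKM at 36 h in WT. comt, the NSF ATPase that takes used SNARE complexes apart, rose 7.32-fold (401 FPKM at 72 h and 54.8 FPKM at 36 h). The SNARE gene Snap25 rose 3.87-fold (468 FPKM at 72 h and 121 FPKM at 36 h), the fusion clamp cpx 3.07-fold (1865 FPKM at 72 h and 608 FPKM at 36 h) and the dynamin gene shi 3.54-fold (706 FPKM at 72 h and 199 FPKM at 36 h). brp, the scaffold of the presynaptic active zone, was at 215 FPKM at 72 h and 196 FPKM at 36 h in knockdown and 126 FPKM at 72 h and 172 FPKM at 36 h in WT, and unc-13, which primes vesicles, at 267 FPKM at 72 h and 291 FPKM at 36 h in knockdown. Both were within 2-fold.

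Of 33 measured voltage-gated channel genes and their partners, 20 rose and 1 fell, with a median of 1.36 (1.77 relative to all genes) in knockdown and 0.65 in WT. Sodium channel genes and their auxiliary subunits made up 6 of these rises among 7 measured. The sodium channel para was at 126 FPKM in KD+Recovery 72 h and 49.0 FPKM in KD 36 h, with 85.9 FPKM at 72 h and 47.1 FPKM at 36 h in WT. The T-type calcium channel gene Ca-alpha1T rose 4.36-fold (162 FPKM at 72 h and 37.2 FPKM at 36 h, with 102 FPKM at 72 h and 35.5 FPKM at 36 h in WT). Among potassium and related channels, Ih, a hyperpolarization-activated channel, rose 7.47-fold (211 FPKM at 72 h and 28.3 FPKM at 36 h), the Slowpoke-binding protein gene Slob 6.11-fold (142 FPKM at 72 h and 23.3 FPKM at 36 h) and the Shaker beta subunit Hk 5.09-fold (220 FPKM at 72 h and 43.2 FPKM at 36 h). The inward rectifier Irk2 was the member that fell, 10.4-fold, at 3.93 FPKM in KD+Recovery 72 h and 41.0 FPKM in KD 36 h.

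Receptor genes changed less than the genes that make the transmitters. Of 33 measured transmitter receptors, 9 rose and 2 fell (median 0.62, or 1.02 relative to all genes), and of 15 monoamine receptors, 5 rose and none fell (median 0.83, or 1.23 relative to all genes). GluRIIA, a glutamate receptor subunit known from the neuromuscular junction, rose 9.54-fold (16.6 FPKM at 72 h and 1.74 FPKM at 36 h), and ort, the histamine receptor of neurons that read photoreceptors, rose 6.25-fold in knockdown (33.6 FPKM at 72 h and 5.38 FPKM at 36 h) and by a log2 change 1.48 larger than in WT (27.5 FPKM at 72 h and 12.3 FPKM at 36 h). The other histamine receptor gene, HisCl1, fell 4.23-fold (3.89 FPKM at 72 h and 16.5 FPKM at 36 h). The GABA receptor gene Rdl was at 252 FPKM at 72 h and 167 FPKM at 36 h. Among monoamine receptors, oa2, an octopamine receptor, rose 4.42-fold (56.1 FPKM at 72 h and 12.7 FPKM at 36 h) and DopEcR, a receptor for dopamine and ecdysteroids, 4.21-fold (391 FPKM at 72 h and 92.9 FPKM at 36 h).

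Of 42 measured neuropeptide and peptide processing genes, 22 rose and 3 fell, with a median of 1.07 (1.47 relative to all genes) and 0.96 in WT. Proct (proctolin) was at 95.2 FPKM in KD+Recovery 72 h and 5.95 FPKM in KD 36 h, with 69.7 FPKM at 72 h and 6.36 FPKM at 36 h in WT. The clock neuron peptide Pdf was at 81.1 FPKM at 72 h and 12.8 FPKM at 36 h and corazonin (Crz) at 54.0 FPKM at 72 h and 10.6 FPKM at 36 h. The processing enzymes Pal and amon, which trim and amidate peptides, rose 9.20-fold (343 FPKM at 72 h and 37.3 FPKM at 36 h) and 6.38-fold (241 FPKM at 72 h and 37.8 FPKM at 36 h). The subunits of bursicon, the hormone of wing expansion, stayed within 2-fold, with burs at 69.1 FPKM at 72 h and 59.4 FPKM at 36 h and pburs at 114 FPKM at 72 h and 108 FPKM at 36 h. Eclosion hormone, Eh, was at 21.4 FPKM at 72 h and 11.8 FPKM at 36 h in knockdown and at 31.4 FPKM at 72 h and 8.75 FPKM at 36 h in WT, so its log2 change was 0.86 in knockdown and 1.84 in WT. Nplp3 fell 24.6-fold (6.33 FPKM at 72 h and 156 FPKM at 36 h, with 4.45 FPKM at 72 h and 99.8 FPKM at 36 h in WT), and Akh, the adipokinetic hormone of the corpora cardiaca beside the brain, fell 2.24-fold (26.4 FPKM at 72 h and 58.9 FPKM at 36 h).

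Energy supply and acidification genes rose together. Of 14 measured glycolysis genes, 12 rose and none fell, with a median of 2.01 (2.42 relative to all genes) and 1.83 in WT. PyK, pyruvate kinase, was at 620 FPKM in KD+Recovery 72 h and 53.3 FPKM in KD 36 h, a rise of 11.6-fold, and Pfk, the committed step of the pathway, at 187 FPKM at 72 h and 20.4 FPKM at 36 h. Pgk and ImpL3, which is lactate dehydrogenase, stayed within 2-fold, at 169 FPKM at 72 h and 103 FPKM at 36 h and at 4.26 FPKM at 72 h and 4.75 FPKM at 36 h. Of 15 measured subunits of the vacuolar proton ATPase, the pump that acidifies synaptic vesicles and lysosomes, 10 rose and none fell (median 1.40, or 1.80 relative to all genes), and Vha55 was at 714 FPKM at 72 h and 152 FPKM at 36 h. Among the highest levels of all genes in KD+Recovery 72 h were Cam (calmodulin) at 3973 FPKM and the sodium pump Atpalpha at 3910 FPKM, against 1664 and 1131 FPKM in KD 36 h. Of 15 measured odorant-binding protein genes, 5 rose and 6 fell (median −0.72, or −0.31 relative to all genes). Obp44a, a member of this family, had the highest value in both, at 28827 FPKM at 72 h and 13600 FPKM at 36 h, with 35566 FPKM at 72 h and 17817 FPKM at 36 h in WT.

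**Figure D2:**
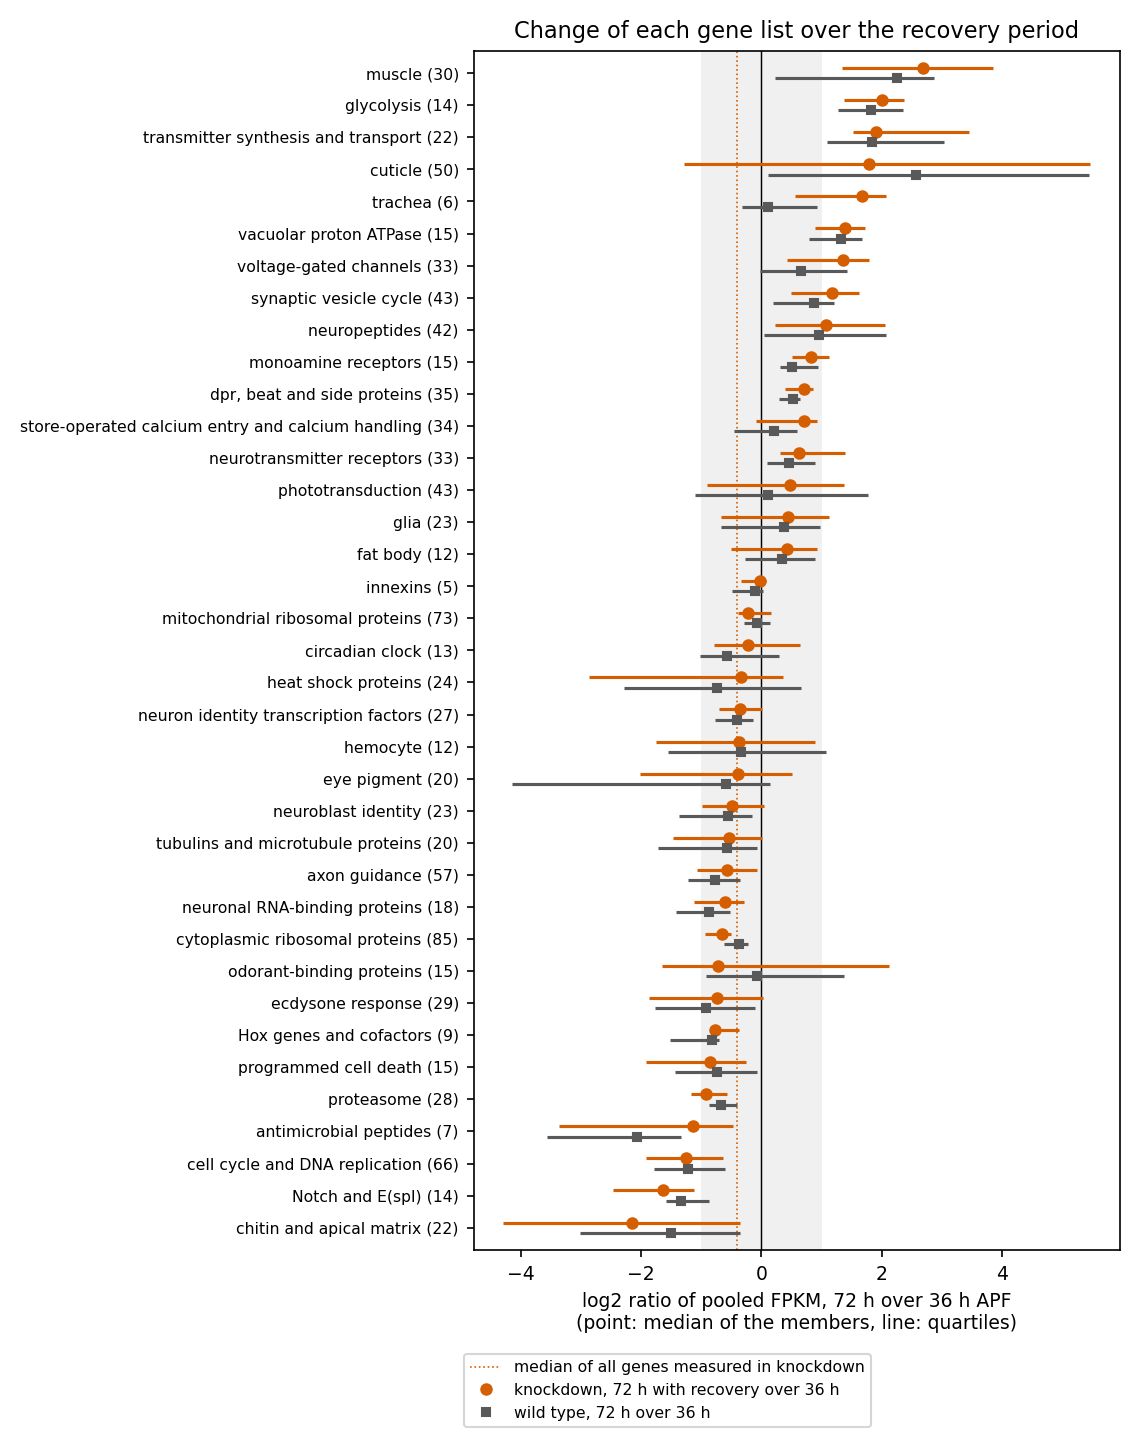
Median log2 ratio (horizontal) of the measured members of each gene list, with a line from the lower to the upper quartile, for knockdown (circles, KD+Recovery 72 h over KD 36 h) and WT (squares, WT 72 h over WT 36 h), and the number of members measured in knockdown in parentheses. Lists run from muscle (2.68) and glycolysis (2.01) at the top to chitin and apical matrix (−2.15) at the bottom, the grey band marks less than 2-fold, and knockdown and WT medians lie close together in most rows.

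Protein synthesis and turnover genes were lower at 72 h by amounts mostly under 2-fold. Of 85 measured cytoplasmic ribosomal protein genes, 84 had a negative log2 ratio, 12 fell and none rose, with a median of −0.66, which is −0.25 relative to all genes, and a WT median of −0.37. RpL41 was at 3780 FPKM in KD+Recovery 72 h and 9776 FPKM in KD 36 h, a fall of 2.59-fold, and at 4978 FPKM at 72 h and 9228 FPKM at 36 h in WT. Its locus overlaps that of the channel gene NaCP60E. The ribosomal protein gene sta was at 520 FPKM at 72 h and 1391 FPKM at 36 h, and RpL24-like, the member with a positive ratio, at 175 FPKM at 72 h and 160 FPKM at 36 h. All 28 measured proteasome genes had a negative ratio, and 11 fell (median −0.91, or −0.51 relative to all genes). The core subunit gene Prosbeta3 was at 51.1 FPKM at 72 h and 141 FPKM at 36 h. The regulatory particle paralogue Rpt4R was at 0.0337 FPKM at 72 h and 11.3 FPKM at 36 h, with 0.360 FPKM at 72 h and 13.7 FPKM at 36 h in WT. Of 73 mitochondrial ribosomal protein genes, 4 fell and none rose, and their median was −0.22, or 0.19 relative to all genes, so its sign turns with the centring.

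Several cytoskeletal genes were lower at 72 h. betaTub56D and alphaTub84B, the main tubulins, were at 685 and 689 FPKM in KD+Recovery 72 h and at 3827 and 3634 FPKM in KD 36 h, falls of 5.59-fold and 5.27-fold, and the WT values were 714 and 859 FPKM at 72 h and 3883 and 3586 FPKM at 36 h. chic, the actin monomer binding profilin, fell 10.6-fold (86.1 FPKM at 72 h and 911 FPKM at 36 h), and capt, a cyclase-associated actin regulator, 4.61-fold (67.2 FPKM at 72 h and 310 FPKM at 36 h). Of 9 housekeeping genes, 5 fell and 2 rose (median −1.16, or −0.75 relative to all genes), and Act5C, often used as a reference gene in PCR assays, was at 677 FPKM at 72 h and 3100 FPKM at 36 h. Of 20 measured tubulin and microtubule genes, 8 fell and 1 rose (median −0.55, or −0.14 relative to all genes), and the synaptic vesicle kinesin unc-104 was at 366 FPKM at 72 h and 194 FPKM at 36 h.

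Of 57 measured axon guidance genes, 16 fell and 1 rose, with a median of −0.57 (−0.17 relative to all genes) and −0.78 in WT. The share that fell was close to the 28.9% of all measured genes. Falls were in 7 of 21 receptors, 7 of 21 adhesion and growth cone genes and 2 of 15 ligands. The receptor-like gene otk was at 4.09 FPKM in KD+Recovery 72 h and 70.8 FPKM in KD 36 h, a fall of 17.3-fold, and the receptor phosphatase Ptp69D at 11.5 FPKM at 72 h and 56.6 FPKM at 36 h. The netrin receptor fra fell 2.80-fold (24.8 FPKM at 72 h and 69.4 FPKM at 36 h) and the midline repellent sli 2.26-fold (65.8 FPKM at 72 h and 148 FPKM at 36 h). trol, the basement membrane perlecan, was the member that rose, 2.74-fold (99.0 FPKM at 72 h and 36.2 FPKM at 36 h). Cell surface proteins of the dpr, beat and side families, which pair synaptic partners, had 7 rises and no fall among 35 measured members, 34 had a positive ratio, and the median was 0.70 (1.11 relative to all genes) and 0.53 in WT. beat-VII was at 41.1 FPKM at 72 h and 13.4 FPKM at 36 h and dpr4 at 140 FPKM at 72 h and 54.5 FPKM at 36 h.

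Neuronal RNA-binding protein genes fell in 6 of 18 cases and rose in 1 (median −0.61, or −0.20 relative to all genes), a share of falls close to the 28.9% of all measured genes. The Elav family members Rbp9 and fne fell 4.58-fold (74.5 FPKM at 72 h and 341 FPKM at 36 h) and 3.75-fold (129 FPKM at 72 h and 483 FPKM at 36 h), and elav, whose locus is shared, was at 41.6 FPKM at 72 h and 91.6 FPKM at 36 h. CG17838 (Syp), which sets neuron fate late in a lineage, fell 3.65-fold (56.1 FPKM at 72 h and 205 FPKM at 36 h). ps (pasilla), a splicing regulator, rose 8.17-fold (279 FPKM at 72 h and 34.2 FPKM at 36 h, with 155 FPKM at 72 h and 30.7 FPKM at 36 h in WT). Transcription factors of neuron identity changed little: 23 of 27 measured stayed within 2-fold, 3 fell and 1 rose, with a median of −0.36 that is 0.04 relative to all genes. Of 9 measured Hox genes and cofactors, 2 fell, abd-A and Abd-B, and none rose. Among innexins, the neuronal gap junction gene shakB fell (58.9 FPKM at 72 h and 130 FPKM at 36 h), while ogre stayed at 140 FPKM at 72 h and 142 FPKM at 36 h. The innexin list had 1 fall among 5 measured genes and no rise (median −0.02, or 0.39 relative to all genes). In the clock list, 2 of 13 genes rose and 3 fell, against 14.9% and 28.9% of all measured genes. Its median of −0.23 turns to 0.18 with centring. The steepest fall was in vri, a repressor of the clock loop, at 1.39 FPKM at 72 h and 38.7 FPKM at 36 h.

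Of 29 measured ecdysone response genes, 12 fell and 4 rose (median −0.74, or −0.33 relative to all genes). Among all measured genes 28.9% fell and 14.9% rose. The receptor genes EcR (44.1 FPKM in KD+Recovery 72 h and 43.2 FPKM in KD 36 h) and usp (37.3 FPKM at 72 h and 30.7 FPKM at 36 h) were at about the same level at both ages. ftz-f1, the competence factor that is made as ecdysone declines, was at 106 FPKM at 72 h and 1.37 FPKM at 36 h in knockdown and 66.8 FPKM at 72 h and 1.32 FPKM at 36 h in WT, a rise of 77.6-fold in knockdown. Blimp-1, its repressor, was at 0.956 FPKM at 72 h and 95.0 FPKM at 36 h in knockdown and 1.15 FPKM at 72 h and 63.5 FPKM at 36 h in WT, a fall of 99.4-fold. Early genes were lower at 72 h, with Eip75B at 45.8 FPKM at 72 h and 199 FPKM at 36 h, Hr4 at 31.9 FPKM at 72 h and 145 FPKM at 36 h and the ecdysone exporter E23 at 1.18 FPKM at 72 h and 23.1 FPKM at 36 h. Hr38, a nuclear receptor also induced by neuronal activity, was at 8.22 FPKM at 72 h and 0.121 FPKM at 36 h in knockdown and 3.33 FPKM at 72 h and 0.171 FPKM at 36 h in WT. The secreted effector ImpL1 had the steepest fall of all genes at or above 1 FPKM in both groups, 524-fold (2.44 FPKM at 72 h and 1279 FPKM at 36 h), with 8.48 FPKM at 72 h and 1026 FPKM at 36 h in WT. ImpE2, another ecdysone-induced effector, was at 1.08 FPKM in KD+Recovery 72 h and 176 FPKM in KD 36 h, but at 31.8 FPKM in WT 72 h and 121 FPKM in WT 36 h. Its log2 change was −7.36 in knockdown and −1.92 in WT, the largest negative difference among the genes compared.

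**Figure D3:**
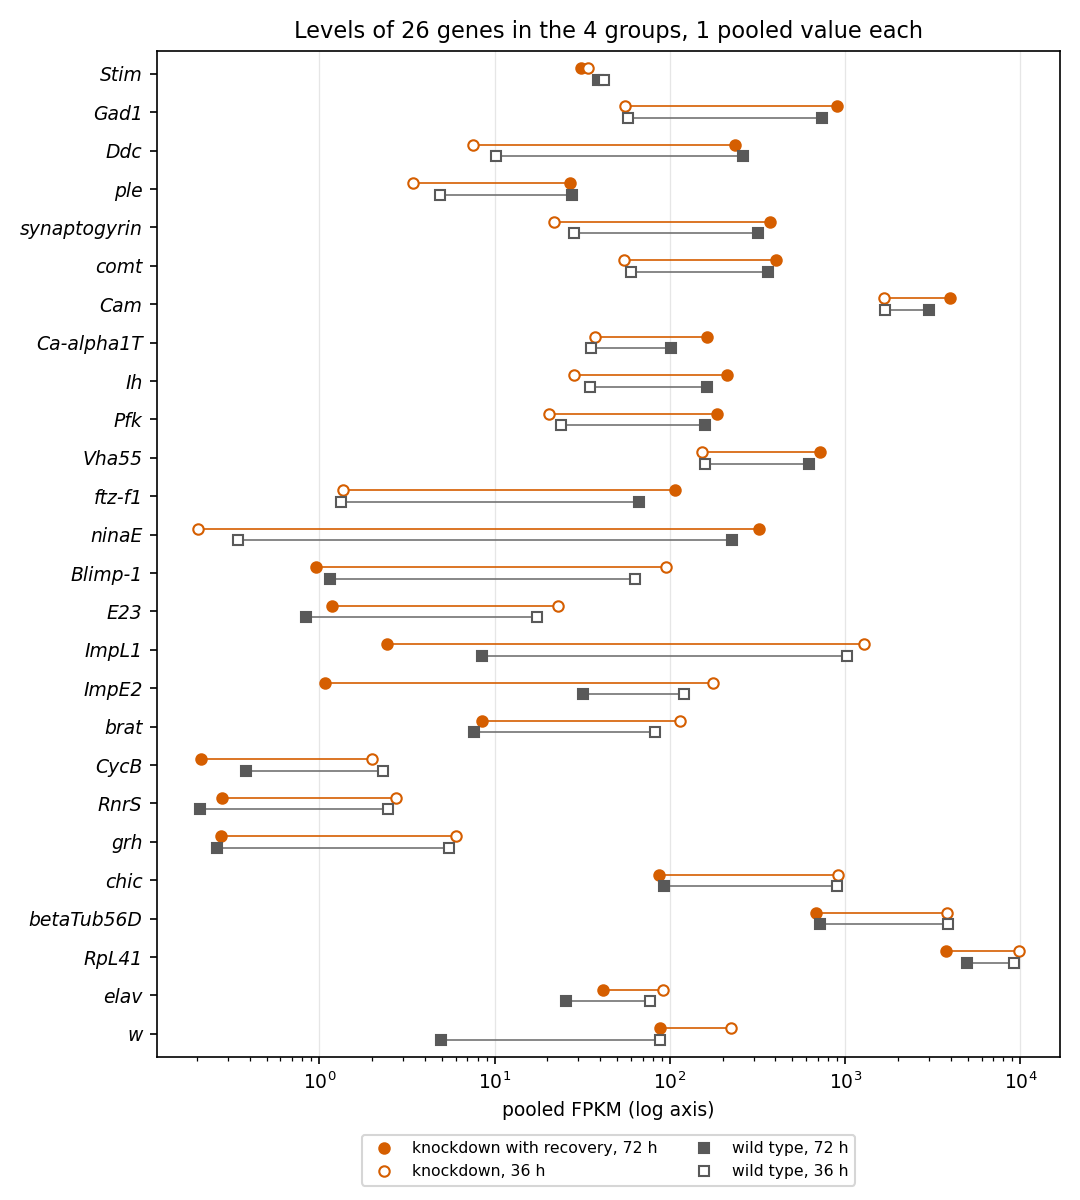
Pooled FPKM (horizontal, log axis) of 26 genes in KD+Recovery 72 h (filled circles), KD 36 h (open circles), WT 72 h (filled squares) and WT 36 h (open squares), 1 value each with no error available. Filled and open symbols lie far apart for most genes while circles and squares of the same age lie close, and ImpE2 and w at 72 h are the places where knockdown and WT stand apart most.

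The eye, attached to the optic lobes, was represented by photoreceptor and pigment genes. Opsins rose in 5 of 6 measured cases. ninaE, the rhodopsin of the outer photoreceptors, was at 322 FPKM in KD+Recovery 72 h and 0.203 FPKM in KD 36 h, with 225 FPKM at 72 h and 0.344 FPKM at 36 h in WT. Rh3 was at 24.6 FPKM at 72 h and 0.351 FPKM at 36 h and Rh4 at 9.41 FPKM at 72 h and 0.0244 FPKM at 36 h, and Rh2, the opsin of the ocelli, was at 61.6 FPKM and listed at 0. Of 22 genes of the phototransduction cascade, 9 rose and 3 fell, led by the arrestin Arr1 (51.4 FPKM at 72 h and 0.0290 FPKM at 36 h), whereas the channel gene trp rose 2.13-fold (65.4 FPKM at 72 h and 30.7 FPKM at 36 h). Genes of photoreceptor identity went the other way, 7 of 15 falling and 2 rising: the transcription factor gl fell 12.8-fold (1.60 FPKM at 72 h and 20.5 FPKM at 36 h). Of 20 pigment genes, 5 rose and 6 fell, against 14.9% and 28.9% of all measured genes. Their median of −0.39 is 0.02 relative to all genes. The ommochrome gene st fell (0.187 FPKM at 72 h and 39.8 FPKM at 36 h), and se, of the pteridine branch, rose 26.1-fold (54.5 FPKM at 72 h and 2.09 FPKM at 36 h).

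Glial genes had a median of 0.44 (0.85 relative to all genes), with 6 of 23 measured rising and 3 falling. The sodium pump subunit nrv2 was at 1766 FPKM in KD+Recovery 72 h and 180 FPKM in KD 36 h, and the astrocyte gene CG11910 (alrm) at 1538 FPKM at 72 h and 143 FPKM at 36 h, rises of 9.82-fold and 10.8-fold. In WT, nrv2 was at 1407 FPKM at 72 h and 179 FPKM at 36 h, and CG11910 at 1631 FPKM at 72 h and 142 FPKM at 36 h. The septate junction genes Cont and Gli were among the 3 members that fell, Cont 2.69-fold (19.5 FPKM at 72 h and 52.6 FPKM at 36 h) and Gli 2.58-fold (8.86 FPKM at 72 h and 22.8 FPKM at 36 h). The blood-brain barrier receptor gene moody was at 40.2 FPKM at 72 h and 36.5 FPKM at 36 h. The summed level of the glial list was 7911 FPKM in KD+Recovery 72 h and 2187 FPKM in KD 36 h.

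Markers of tissues around the CNS moved over the same interval. Of 30 muscle genes, 23 rose and 2 fell, and their summed FPKM was 2053 in KD+Recovery 72 h and 983 in KD 36 h, against 2597 in WT 72 h and 1095 in WT 36 h. TpnC4, a troponin C gene of flight muscle, was at 21.3 FPKM at 72 h and 0.125 FPKM at 36 h in knockdown and 5.87 FPKM at 72 h and 0.402 FPKM at 36 h in WT. Act57B was at 221 FPKM at 72 h and 19.7 FPKM at 36 h in knockdown and 424 FPKM at 72 h and 29.9 FPKM at 36 h in WT. Of 50 measured cuticle protein genes of 120 found, 30 rose and 14 fell, with a summed level of 4602 FPKM in KD+Recovery 72 h and 492 FPKM in KD 36 h, and 6253 FPKM at 72 h and 710 FPKM at 36 h in WT. Cpr64Ad was at 1665 FPKM at 72 h and 1.24 FPKM at 36 h, the largest rise among genes at or above 1 FPKM in both knockdown groups, and TwdlBeta at 790 FPKM at 72 h and 0.171 FPKM at 36 h. Genes of chitin and the apical matrix went down, 16 of 22 falling and 4 rising (summed 352 FPKM at 72 h and 2008 FPKM at 36 h in knockdown, 539 FPKM at 72 h and 1620 FPKM at 36 h in WT). The chitinase Cht5 fell 180-fold (4.33 FPKM at 72 h and 778 FPKM at 36 h), the chitin synthase kkv 20.1-fold (1.59 FPKM at 72 h and 32.0 FPKM at 36 h), and the zona pellucida domain genes neo, mey and nyo were at 0.0141, 0.0612 and 0.0755 FPKM in KD+Recovery 72 h and at 46.0, 67.8 and 31.8 FPKM in KD 36 h.

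Fat body, blood cell and tracheal markers were also present. Of 12 fat body genes, 3 rose and 3 fell (summed 517 FPKM at 72 h and 257 FPKM at 36 h in knockdown), with Adh at 386 FPKM at 72 h and 98.7 FPKM at 36 h in knockdown and 403 FPKM at 72 h and 225 FPKM at 36 h in WT. Of 12 measured hemocyte genes, 2 rose and 5 fell (summed 319 FPKM at 72 h and 281 FPKM at 36 h), and Hml, a defining marker, was below 1 FPKM in all 4 groups. Of 6 measured tracheal genes, 4 rose and 1 fell in knockdown, where the summed level was 227 FPKM at 72 h and 78.8 FPKM at 36 h, against 333 FPKM at 72 h and 197 FPKM at 36 h in WT. None of the muscle, chitin, fat body and tracheal markers was listed at 0 in any group, nor was any hemocyte marker other than 1 in WT 36 h, and 29 and 39 of the 120 cuticle genes were listed at 0 in KD+Recovery 72 h and KD 36 h. These markers move with age in both genotypes, and the part that attached tissue, or the share of it kept at dissection, has in any level above was not tested.

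The largest changes formed neighbouring groups in the genome (dm3). Of 219 genes at least 16-fold higher at 72 h in knockdown (2.29% of those measured), 68 (31.1%) had another such gene within 10 kb, against 5.07% of all measured genes. Of 253 genes at least 16-fold lower (2.65%), 57 (22.5%) had one, against 4.92%. Distances were taken between the midpoints of the listed loci, so genes that share a locus count as neighbours in all of these shares. Part of the grouping can therefore come from the annotation and from the uncertain split of reads within such loci. On 3L, 9 of 13 measured genes between 16248947 and 16278496, among them CG13051 (2374 FPKM at 72 h and 4.06 FPKM at 36 h) and CG13047 (1208 FPKM at 72 h and 2.60 FPKM at 36 h), were at least 16-fold higher, and so were all 4 Cpr64A genes between 4207837 and 4216414. In the opposite direction, 2 runs of Osiris genes on 3R, Osi3 to Osi6 at 2041557 to 2062603 and Osi7 to Osi11 at 2074713 to 2094410, were at least 16-fold lower in 4 of 4 measured genes each. Osi6 was at 0.0647 FPKM at 72 h and 73.4 FPKM at 36 h and Osi9 at 14.3 FPKM at 72 h and 680 FPKM at 36 h. The small heat shock genes at 3L 9365821 to 9378384 formed another, with 5 of 6 at least 16-fold lower. Hsp23 was at 95.1 FPKM in KD+Recovery 72 h and 3038 FPKM in KD 36 h, and Hsp27 at 34.4 FPKM at 72 h and 918 FPKM at 36 h. In WT, Hsp23 was at 69.0 FPKM at 72 h and 3044 FPKM at 36 h. Age and time since the 29 °C period cannot be told apart in these heat shock genes.

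Other genes with the largest changes had no assigned role in the lists. CG13674 was at 1606 FPKM in KD+Recovery 72 h and 2.01 FPKM in KD 36 h, with 1606 FPKM at 72 h and 1.81 FPKM at 36 h in WT. CG7888 was at 681 FPKM at 72 h and 3.44 FPKM at 36 h, and CG1552 at 983 FPKM at 72 h and 5.40 FPKM at 36 h. The glutathione transferase GstE2 was at 196 FPKM at 72 h and 1.61 FPKM at 36 h. Among falls, CG11997 was at 1.10 FPKM at 72 h and 560 FPKM at 36 h (its listed locus spans another gene), CG12880 at 1.46 FPKM at 72 h and 223 FPKM at 36 h, CG4702 at 2.95 FPKM at 72 h and 311 FPKM at 36 h and the sulfotransferase gene pip at 1.09 FPKM at 72 h and 76.0 FPKM at 36 h. The short peptide gene tal-AA, which acts in epidermal differentiation, was at 1.47 FPKM at 72 h and 96.9 FPKM at 36 h. The 81 measured genes of chromosome 4 had a median log2 ratio of 0.05 in knockdown, against −0.47 to −0.38 on the other arms, and 8.64% of them fell. In WT their median was −0.06 over the 77 of these at 1 FPKM or above in every group. They are long, with a median transcript of 3877 bases, and after centring on genes of similar length their medians were 0.35 in knockdown and 0.33 in WT.

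Genes of SOCE and calcium handling had a median of 0.70 (1.11 relative to all genes) in knockdown and 0.20 in WT, with 8 of 34 rising and 4 falling in knockdown. Their median difference from WT was 0.22, and 0.09 once genes were centred by transcript length. The Orai channel gene olf186-F fell 2.63-fold in knockdown, with 16.4 FPKM in KD+Recovery 72 h and 43.1 FPKM in KD 36 h, and was at 28.4 FPKM at 72 h and 77.6 FPKM at 36 h in WT. The difference in change was 0.05 on the log2 scale, and the knockdown was below WT at both ages. Itp-r83A, the IP3 receptor that releases stored calcium, rose 3.69-fold in knockdown to 51.8 FPKM at 72 h. The store pump Ca-P60A was at 171 FPKM at 72 h and 103 FPKM at 36 h. The calcium buffer Cbp53E rose 7.18-fold (548 FPKM at 72 h and 76.4 FPKM at 36 h).

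Of 18 genes that the study named, 4 rose and 6 fell. Of these, 5 were named as up and 8 as down after knockdown at 36 h, a choice made on these samples. The other 5 are the knockdown target and genes of earlier work, and they hold 3 of the 4 rises and no fall. Rala, the small GTPase, was at 33.2 FPKM in KD+Recovery 72 h and 56.3 FPKM in KD 36 h, and at 36.5 FPKM in WT 72 h and 105 FPKM in WT 36 h. The log2 change was −0.77 in knockdown and −1.53 in WT, with a smaller gap to WT at 72 h. The inositol synthesis gene Inos showed a similar order, at 21.5 FPKM at 72 h and 112 FPKM at 36 h in knockdown and 17.6 FPKM at 72 h and 270 FPKM at 36 h in WT. Set2, a histone methyltransferase, was at 9.75 FPKM at 72 h and 14.5 FPKM at 36 h in knockdown and 40.3 FPKM at 72 h and 22.5 FPKM at 36 h in WT, so the gap was larger at 72 h. The ribosomal protein gene tko was at 89.5 FPKM at 72 h and 61.3 FPKM at 36 h in knockdown and 28.0 FPKM at 72 h and 27.3 FPKM at 36 h in WT. The amino acid transporter gene path was at 70.9 FPKM at 72 h and 77.4 FPKM at 36 h in knockdown and 37.2 FPKM at 72 h and 40.9 FPKM at 36 h in WT. Both were higher in knockdown at both ages and stayed within 2-fold over the recovery period. CG11382, at 1.51 FPKM at 72 h and 7.05 FPKM at 36 h in knockdown and 14.8 FPKM at 72 h and 105 FPKM at 36 h in WT, was lower in knockdown at both ages.

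The change over time in knockdown was close to that in WT. Across the 8312 genes at or above 1 FPKM in all 4 groups, Pearson's r between the log2 changes was 0.94 and Spearman's rho 0.93. The points are genes of 4 pooled profiles and are not independent replicates, and both axes share the normalization of each table. Of 1036 such genes that rose in knockdown, 784 (75.7%) also rose in WT, which is 89.7% of those that rose in WT. Of 2105 that fell in knockdown, 1662 (79.0%) also fell in WT, which is 86.0% of those that fell there. The log2 changes differed by less than 1.5-fold for 7359 genes (88.5%). They were at least 2-fold higher in knockdown for 143 genes (1.72%) and at least 2-fold lower for 180 (2.17%), and 17 and 6 of these were small RNA genes. Knockdown and WT of the same age came from the same table, so a scale factor between the tables cancels in this difference.

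**Figure D4:**
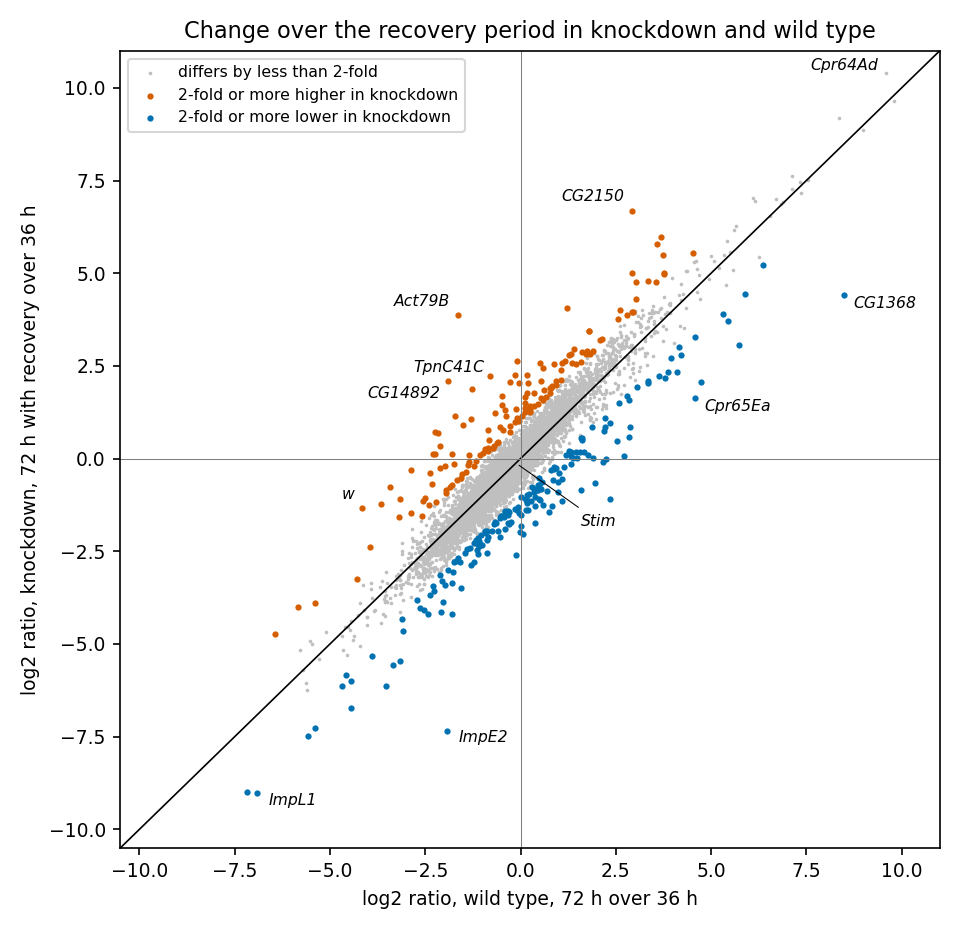
Log2 ratio over the recovery period in knockdown (vertical, KD+Recovery 72 h over KD 36 h) against WT (horizontal, WT 72 h over WT 36 h) for the 8312 genes at or above 1 FPKM in all 4 groups, with genes that differ by at least 2-fold coloured and equal change on the diagonal. Most genes follow the diagonal (r = 0.94), while Act79B and CG14892 rose in knockdown and fell in WT, and ImpE2 and CG1368 lie far below the line.

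Muscle genes were prominent where knockdown and WT differed. Of 24 muscle genes at or above 1 FPKM in every group, 6 had a change at least 2-fold higher in knockdown and none lower. Among all genes compared the shares were 1.72% and 2.17%. Act79B, an actin of adult tubular muscle, was at 24.0 FPKM in KD+Recovery 72 h and 1.63 FPKM in KD 36 h, but at 5.24 FPKM in WT 72 h and 16.4 FPKM in WT 36 h, a difference in log2 change of 5.52. The troponin C gene TpnC41C was at 11.4 FPKM at 72 h and 2.42 FPKM at 36 h in knockdown and 5.24 FPKM at 72 h and 9.11 FPKM at 36 h in WT. The calcium-binding protein gene Scp1 was at 19.1 FPKM at 72 h and 1.16 FPKM at 36 h in knockdown and 6.51 FPKM at 72 h and 2.79 FPKM at 36 h in WT. In each of these 3 the knockdown was lower than WT at 36 h and higher at 72 h. Cuticle genes stood on both sides. Cpr65Ea was at 3.15 FPKM at 72 h and 1.01 FPKM at 36 h in knockdown and 298 FPKM at 72 h and 12.4 FPKM at 36 h in WT. Cpr51A was at 56.2 FPKM at 72 h and 6.74 FPKM at 36 h in knockdown and 159 FPKM at 72 h and 2.99 FPKM at 36 h in WT. Outside these families, CG2150 was at 167 FPKM at 72 h and 1.62 FPKM at 36 h in knockdown and 40.9 FPKM at 72 h and 5.39 FPKM at 36 h in WT. CG1368 was at 24.0 FPKM at 72 h and 1.14 FPKM at 36 h in knockdown and at 480 FPKM at 72 h and 1.35 FPKM at 36 h in WT. The gene ect fell 18.4-fold in knockdown (12.1 FPKM at 72 h and 224 FPKM at 36 h) and less in WT (54.3 FPKM at 72 h and 190 FPKM at 36 h). The summed muscle and cuticle levels given above were lower in knockdown than in WT at both ages, and their part in these differences was not tested.

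Of the 8312 genes, 7 changed at least 2-fold in opposite directions. Act79B, CG14892, CG30101, CG30104 and snoRNA:Psi28S-1192a rose in knockdown and fell in WT, and betaTub85D and snoRNA:Me28S-G2703b did the reverse. CG14892 was at 8.04 FPKM at 72 h and 1.88 FPKM at 36 h in knockdown and 4.90 FPKM at 72 h and 18.2 FPKM at 36 h in WT. betaTub85D, the testis tubulin, was at 2.68 FPKM at 72 h and 5.88 FPKM at 36 h in knockdown and 9.06 FPKM at 72 h and 4.24 FPKM at 36 h in WT. The gene w, an eye colour transporter that marks transgenes in flies, was at 87.3 FPKM in KD+Recovery 72 h and 222 FPKM in KD 36 h, and at 4.94 FPKM in WT 72 h and 88.0 FPKM in WT 36 h. The log2 change of w was −1.35 in knockdown and −4.15 in WT. The knockdown animals carry several transgenes and WT none, so the level of w cannot be told apart from the transgenic background.

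The lists also differed between genotypes in their median difference in log2 change (knockdown minus WT). It was 0.35 for synaptic vesicle genes, 0.47 for voltage-gated channels, 0.36 for transmitter synthesis and transport and 0.21 for axon guidance genes, against −0.29 for cytoplasmic ribosomal proteins, and 0.03 for all genes compared. The axon guidance medians were negative in both genotypes, so a positive difference there means a smaller decrease in knockdown. These values move with transcript length. Over 5 groups of genes from shortest to longest, the median difference was −0.18, −0.10, 0.00, 0.11 and 0.27, and the share of genes with a difference above 0 was 26.6%, 35.7%, 50.1%, 69.0% and 86.8%. After centring on genes of similar length, the median differences were 0.16 for synaptic vesicle genes, 0.20 for channels, 0.25 for transmitter genes, −0.09 for axon guidance genes and −0.12 for ribosomal proteins.

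**Figure D5:**
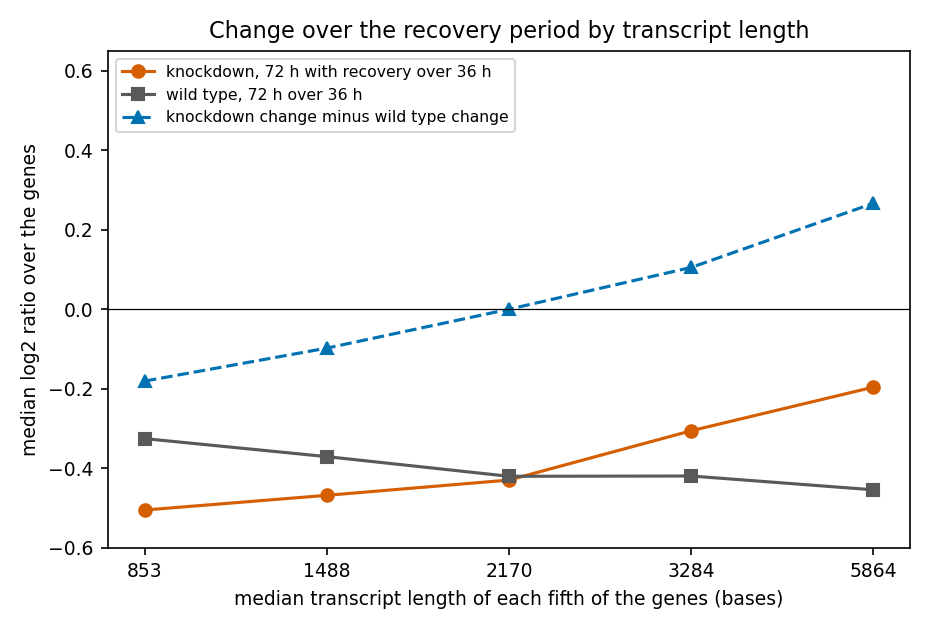
Median log2 ratio (vertical) of genes in 5 groups of equal size by longest transcript (horizontal, median length of each group in bases), for knockdown (circles), WT (squares) and the difference between them (triangles). The difference runs from −0.18 in the shortest group to 0.27 in the longest.

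Heat shock genes fell in 11 of 24 measured cases and rose in 5, and their median of −0.34 turns to 0.06 with centring. The chaperones of the endoplasmic reticulum Hsc70-3 and Gp93 fell 6.24-fold (110 FPKM at 72 h and 688 FPKM at 36 h) and 5.24-fold (47.0 FPKM at 72 h and 246 FPKM at 36 h). Hsp68, an inducible chaperone, was at 13.2 FPKM at 72 h and 10.5 FPKM at 36 h in knockdown and 6.29 FPKM at 72 h and 27.5 FPKM at 36 h in WT. Hsp83 was at 560 FPKM at 72 h and 576 FPKM at 36 h in knockdown and 532 FPKM at 72 h and 888 FPKM at 36 h in WT. Of 7 measured antimicrobial peptide genes, 5 fell and 1 rose in knockdown, at low levels that summed to 18.6 FPKM in KD+Recovery 72 h and 47.5 FPKM in KD 36 h, with 12.8 FPKM at 72 h and 36.8 FPKM at 36 h in WT. Def was at 0.833 FPKM at 72 h and 11.1 FPKM at 36 h and Dpt at 1.15 FPKM at 72 h and 10.3 FPKM at 36 h in knockdown, with Dpt at 0.402 FPKM at 72 h and 0.393 FPKM at 36 h in WT.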

How the data were processed

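RNA was sequenced from pupal CNS of the knockdown genotype and of Canton S at 36 h and 72 h APF, with 2 samples per group. Per the study's methods, libraries were made from total RNA with an Illumina TruSeq RNA kit. Per the submitters' processing notes and those methods, reads were aligned with TopHat2 2.0.11 to dm3 and quantified with Cuffdiff 2.2.0. CASAVA and edgeR are also named. The authors deposited 1 FPKM value per gene and group, pooled over the replicates and normalized geometrically within each age. The same tables, and separate edgeR tables, hold the authors' fold changes, p-values and q-values for knockdown against WT, and none of these was used.

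The tables were joined by gene name. The log2 ratio of KD+Recovery 72 h over KD 36 h was taken for genes above 0 FPKM in both groups and at least 1 FPKM in 1 of them, with no pseudocount, and likewise in WT. Comparisons with WT used genes at 1 FPKM or above in all 4 groups. A difference of at least 2-fold was counted. With pooled values no test, error or depth could be had. Counting was tested on simulated data. Transcript lengths came from Ensembl release 115, whose gene identifiers matched 9405 measured genes (98.3%).

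Genes named are members of 41 lists, the 15 largest rises and falls at 1 FPKM or above in both groups and 10 or above in 1, the 10 largest differences from WT in each direction, the 5 highest genes per knockdown group and the 5 highest listed at 0 at the other age. Not all are printed, and CG30101, CG30104, the 2 snoRNA genes and betaTub85D were named for opposite directions, and the Osiris genes for their runs, after their values were seen. The members and lists were chosen with earlier results of these data known. Alternatives covered the scale between tables, pseudocount, filter, fold, file status, rows naming several genes and, added after the data were examined, transcript length and small RNA genes. Values were computed in Python 3.11.15 with NumPy 2.4.6 and pandas 2.3.3, correlations with SciPy 1.17.1, and plots were drawn with matplotlib 3.10.9.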

Additional observations from a re-analysis of the deposited data

How the results depend on the processing

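No replicate could be left out, because each deposited value pools both replicates of a group. No paired analysis was possible because the columns carry no replicate. The counts of genes rising (1429) and falling (2766) in knockdown moved by over 1.5 times only with the filter of 10 FPKM in a group (1835 fell), at 1.5-fold (4154 fell) and at 4-fold (694 rose and 1039 fell). The counts with a change at least 2-fold higher (143) or lower (180) in knockdown than in WT were 93 higher after scaling to the upper quartile, 583 and 1240 with no filter, 115 lower with at least 10 FPKM in a group, 500 and 453 at 1.5-fold, and 29 and 27 at 4-fold. The large counts with no filter come from genes under 1 FPKM in a group, which that setting adds. Among list medians of at least 2-fold, that of the antimicrobial peptide genes changed sign, to 0.16 with at least 1 FPKM in every group. Of the smaller medians, 9 turned sign when centred on the median of all genes: clock, eye pigment, study genes, heat shock, hemocyte, innexins, mitochondrial ribosomal proteins, neuron identity factors and transgene markers. The hemocyte median of −0.37 was 0.65 with at least 1 FPKM in every group. Requiring 10 FPKM in a group moved 5 list medians by more than the set limit, and pseudocounts of 0.1 and 1 moved 0 and 1. Centring on genes of similar transcript length, chosen after seeing the data, left 144 and 167 genes apart from WT and moved 1 list median. Leaving out small RNA genes, also chosen after seeing the data, gave 126 and 174.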

Other observations

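Genes seen in 1 group alone were unevenly spread. With at least 5 FPKM in 1 group and under 1 FPKM in the other 3, there were 9 genes in KD+Recovery 72 h (7 of them small RNA genes), 25 in KD 36 h (23), 70 in WT 72 h (7) and 23 in WT 36 h (20). The 63 other genes of WT 72 h, described after their values were seen, included genes known from the male germ line. Mst84Db was listed at 0 in KD+Recovery 72 h, KD 36 h and WT 36 h and at 17.9 FPKM in WT 72 h. Mst84Da was listed at 0 in KD+Recovery 72 h and was at 0.563 FPKM in KD 36 h, against 23.9 FPKM in WT 72 h. Mst98Ca was at 0.0410 FPKM in KD+Recovery 72 h and 0.0825 FPKM in KD 36 h, against 7.61 FPKM in WT 72 h and 0.135 FPKM in WT 36 h. dj (don juan), a sperm protein gene, was at 5.53 FPKM in WT 72 h and listed at 0 in KD+Recovery 72 h. In the opposite direction, Sfp33A4, named as a seminal fluid protein gene, was at 20.4 FPKM in KD+Recovery 72 h and listed at 0 in the other 3 groups.

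Genes listed at 0 at 1 age were in part small RNA genes. In knockdown, 79 genes were listed at 0 at 36 h and at 1 FPKM or above at 72 h, of which 30 were small RNA genes, and 115 were the reverse, of which 70 were small RNA genes. The cuticle gene Acp65Aa was at 269 FPKM in KD+Recovery 72 h and listed at 0 in KD 36 h, with 693 FPKM in WT 72 h and 0.653 FPKM in WT 36 h. CG13081 was listed at 0 in KD+Recovery 72 h and at 322 FPKM in KD 36 h, with 0.671 FPKM in WT 72 h and 103 FPKM in WT 36 h.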
